A study of Homo sapiens with 12 samples.

Results

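The genes described here encode the proteasome and the factors that build and regulate it. They were taken by name, as every row of the deposited expression tables whose symbol began with PSMA to PSMG followed by a number and held no hyphen, which gave 49 of 23621 gene rows. Of these, 47 reached the level used for testing and 2 (PSMA8 and PSMB11, the core subunits restricted to germ cells and to the thymus) stayed at 0.155 FPKM or less in all 12 libraries. The name rule also took PSMC3IP, which encodes a cofactor of meiotic recombination and is not a proteasome subunit. With PSMC3IP left out, the counts of genes called in each comparison differed by at most 1.

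The proteasome is the protease that degrades proteins tagged with ubiquitin. Its barrel-shaped 20S core is made of rings of alpha subunits (PSMA genes), which gate the entrance, and rings of beta subunits (PSMB genes), which hold the active sites. The 19S regulatory particle caps the core: its ATPases (PSMC genes) unfold substrates, and its non-ATPase subunits (PSMD genes) bind and deubiquitinate them. In cells exposed to interferon, PSMB8, PSMB9 and PSMB10 replace the constitutive catalytic subunits and form the immunoproteasome, whose products feed antigen presentation. Dedicated chaperones (PSMG genes for the core, PSMD5, PSMD9 and PSMD10 for the ATPase ring) guide assembly and leave the finished particle. Alternative caps (PSME genes) can replace the 19S particle, and PSMF1 encodes an inhibitor of the core.

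RNA sequencing was carried out on KURAMOCHI and COV362 cells, a pair of human ovarian cancer cell lines labelled as untransduced controls. Each line was treated for 6 hr with DMSO (the vehicle) or with THZ1 at 50 nM or 250 nM. THZ1 is a covalent inhibitor of CDK7, CDK12 and CDK13, kinases that act on RNA polymerase II. KURAMOCHI cells were grown in RPMI and COV362 cells in DMEM, and each group held 2 libraries described in the series as biological duplicates, 12 libraries in all.

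Values were FPKM (fragments counted per transcript length and library size) that the authors normalized to ERCC spike-in RNA, added in proportion to cell number. Read counts and depth were unknown, and with 2 libraries a group the number of libraries limited precision. The adjustment was not 1 factor per library: in 11 of 12 libraries 8 to 1951 rows lay below the value that 5276 KURAMOCHI or 4896 COV362 rows shared. In bulk cultures, a smaller share of live cells among those counted and less RNA per cell cannot be told apart. A gene counted as active when it passed 1 FPKM in at least 1 library (14251 genes), and it was called lower or higher when its log2 fold change on log2(FPKM + 1) passed 0.5 in size with a limma p, adjusted by Benjamini-Hochberg, under 0.001. An exact two-sided permutation test of 2 against 2 libraries cannot go below 0.33, so tests rested on the spread shared across genes in limma. Over all active genes the median log2 fold change was -0.40 and -1.11 in KURAMOCHI cells and -0.85 and -1.31 in COV362 cells at 50 nM and 250 nM, and proteasome genes were read against these shifts. Of the markers of ovarian serous epithelium, PAX8, KRT8 and KRT18 were high in DMSO libraries of both lines (124 FPKM or more as means). WT1 was 53.4 to 60.1 FPKM in KURAMOCHI and 0.565 to 0.741 FPKM in COV362 DMSO libraries, while EPCAM and KRT7 were 4.01 to 4.68 FPKM in KURAMOCHI DMSO libraries. MUC16 was low, at 0.159 and 0.172 FPKM in KURAMOCHI and 5.20 and 6.22 FPKM in COV362 DMSO libraries. Of the leukocyte markers, CD3E and PTPRC stayed below 0.30 FPKM in every library and CD68 was 1.77 to 4.53 FPKM in DMSO libraries, and of the fibroblast and endothelial markers COL3A1 was the highest, at 7.74 and 9.43 FPKM in KURAMOCHI DMSO libraries; the part of such cells in the results was not tested.

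Proteasome transcripts were abundant before treatment. In DMSO libraries, 27 of the 47 genes in KURAMOCHI cells and 32 in COV362 cells had a mean of at least 100 FPKM. The range ran from 13.0 FPKM for PSMG4 to 718 FPKM for the alpha subunit gene PSMA7 in KURAMOCHI cells, and from 24.7 FPKM for PSMC3IP to 1000 FPKM for the beta subunit gene PSMB4 in COV362 cells. The median proteasome gene stood 11.9 ± 0.148 times (SD, n = 2) above the median active gene in KURAMOCHI cells and 10.4 ± 0.438 times above it in COV362 cells.

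On the spike-in scale, proteasome transcripts fell in both lines at 250 nM, and by less than most active genes when read as the percentage of the DMSO level; under scalings that further multiply each library by 1 factor the median change turned positive, with 35 of 47 called higher in each line under equal-median scaling (26.9% and 26.4% of active genes) and 17 and 16 under median-of-ratios scaling (11.1% and 8.57%). At 250 nM, 43 of the 47 genes were called lower in KURAMOCHI cells, where 68.6% of all active genes were called lower, and 47 of 47 in COV362 cells, where the share of all active genes was 84%. No proteasome gene was called higher at either dose in either line by limma, at backgrounds of 0.0842% and 0.0491% of active genes for 50 nM and 250 nM in KURAMOCHI cells and 0.0772% and 0.105% in COV362 cells. At 50 nM the lines stood apart in count: 1 gene was called lower in KURAMOCHI cells (background 11.3%) and 33 in COV362 cells (background 70.5%), and at an unadjusted p under 0.05 in either direction these counts were 23 and 47 (backgrounds 62.5% and 91.9%). At 250 nM 47 genes in each line had an unadjusted p under 0.05 (backgrounds 89.8% and 93.1%). These counts leaned on single libraries: 43 became 23 (background 44.3%) without the 250 nM replicate 2 of KURAMOCHI cells, and 33 became 4 (background 30.3%) without the DMSO replicate 2 of COV362 cells. The difference between the lines was not tested, because the tables of the lines were normalized apart.

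The median proteasome gene kept 51.7% of its DMSO level at 250 nM in KURAMOCHI cells, where the median active gene kept 36.3%. In COV362 cells these values were 43.6% and 33%, the second being that of active genes. At 50 nM they were 86.6% and 70% in KURAMOCHI cells and 61.7% and 49.1% in COV362 cells. At 250 nM, 42 of 47 proteasome genes in KURAMOCHI cells and 37 in COV362 cells kept more than the median active gene did. Level moved with this, though not in a steady rise: the 2851 active genes with the highest DMSO levels kept a median of 49.1% in KURAMOCHI and 40.8% in COV362 cells, and the 38 and 43 proteasome genes among them 55.7% and 44.8%. The 2850 active genes with the lowest DMSO levels kept 47.5% and 46.1%. Groups of active genes between these kept 27.7% to 32.9% in KURAMOCHI and 25.6% to 29.4% in COV362 cells. The part of level was not tested further. On the log2(FPKM + 1) scale the median changes of proteasome genes were -0.91 in KURAMOCHI cells and -1.17 in COV362 cells at 250 nM, and -0.20 and -0.69 at 50 nM. On that scale 31 and 29 of the 47 genes fell by less than the median active gene at 250 nM. Without DMSO replicate 1 the KURAMOCHI median at 50 nM was -0.11, with 13 genes above 0 in place of 5.

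**Figure D1:**
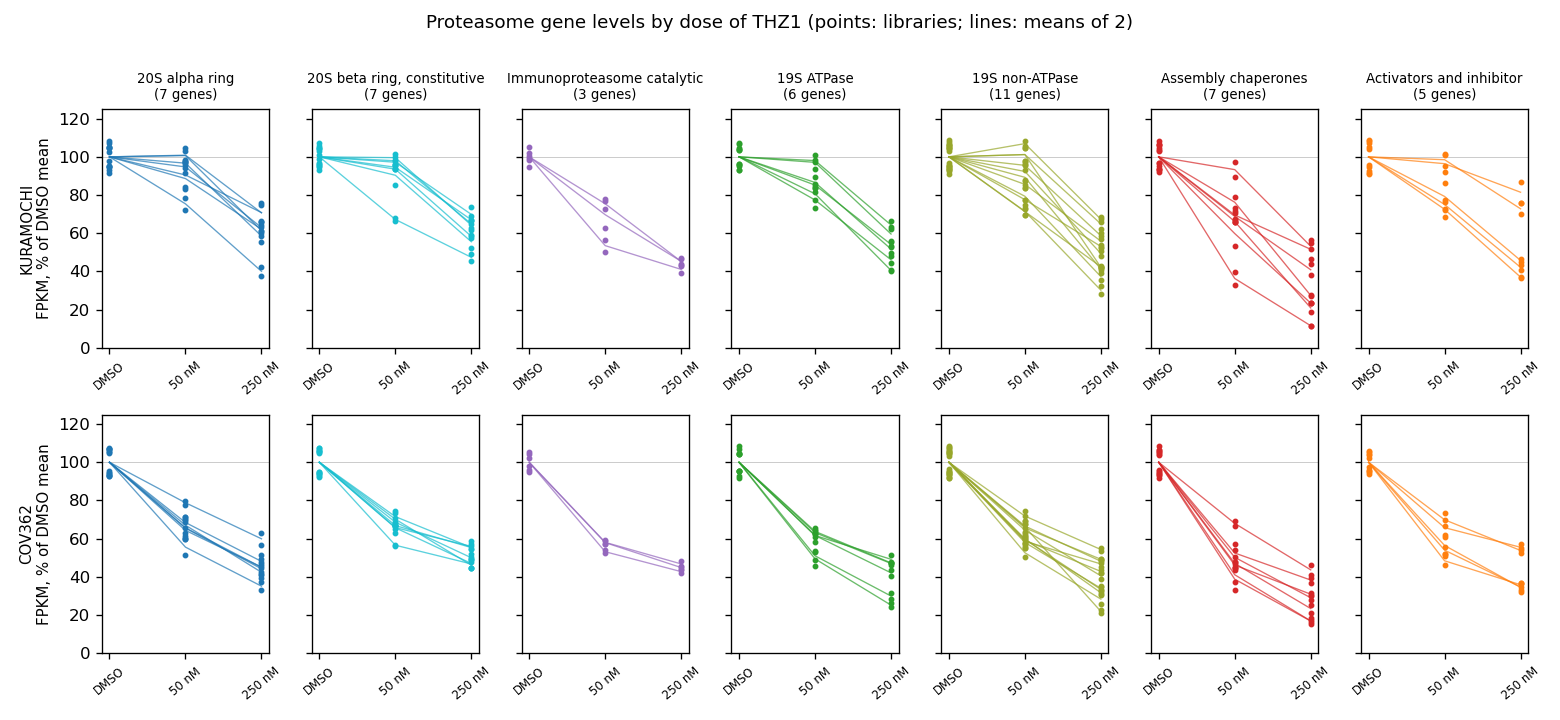
FPKM of 46 proteasome genes in each library, as a percentage of the gene's DMSO mean (vertical axis), by THZ1 dose (horizontal axis) and by role (panels), in KURAMOCHI (top) and COV362 cells (bottom). Points are libraries and lines join means of 2. On this spike-in scale COV362 lines drop at 50 nM already and most KURAMOCHI lines of the 20S core stay near 100% until 250 nM, PSMB5 and PSMA5 being the lowest at 50 nM, and the assembly chaperones reach the lowest values; under the other scalings the median over all genes is positive at 250 nM, while that of the chaperones is -0.39 and -0.17 under median-of-ratios scaling.

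All 47 genes ran in dose order in COV362 cells, with every DMSO library above every 50 nM library and every 50 nM library above every 250 nM library. The same order over all 6 libraries was met by 73.8% of active genes. In KURAMOCHI cells it was met by 27 of 47 proteasome genes (57.4%) and by 66.7% of active genes. The step from 50 nM to 250 nM carried 31 lower calls in KURAMOCHI cells (background 36%) and 11 in COV362 cells (background 24.4%), and 0 higher calls in either by limma (backgrounds 0.0421% and 0.0842%), with 45 and 47 genes at an unadjusted p under 0.05 (backgrounds 74.2% and 65.5%). In KURAMOCHI cells 31 lower calls became 1 without 50 nM replicate 1 or either 250 nM library (backgrounds 5.55% to 7.17%) and 7 (background 11.2%) without 50 nM replicate 2, and in COV362 cells 11 became 1 to 3 without any library but 50 nM replicate 1 (backgrounds 10.7% to 18.7%). Over this step the median proteasome gene changed by -0.70 in KURAMOCHI cells and -0.51 in COV362 cells, against -0.62 and -0.41 for the median active gene. This order turned in both lines with a minimum of 10 FPKM (active genes at -0.78 and -0.53) and on both other scales, and in KURAMOCHI cells with a pseudocount of 0.1 (-0.70 against -0.79). These comparisons share treated libraries with the comparisons against DMSO and are not independent of them. At 50 nM the groups did not overlap, in the lower direction, for 27 genes in KURAMOCHI cells (background 75.8%) and for 47 in COV362 cells (background 95.7%), and at 250 nM for 47 genes in each line (backgrounds 95.9% and 95.6%). Between the doses it was 47 genes in each line, against 87.7% of active genes in KURAMOCHI cells and 75.6% in COV362 cells. Apart from PSMD2 at 50 nM in KURAMOCHI cells, no gene was separate in the higher direction, where the backgrounds were 3.45% and 0.674% at 50 nM, 0.414% and 0.54% at 250 nM and 1.26% and 4.76% between the doses in KURAMOCHI and COV362 cells.

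The 14 genes of the constitutive 20S core were the group that kept most of its transcript on the spike-in scale. Their median log2 fold change at 250 nM was -0.67 in KURAMOCHI cells, with 12 of 14 called lower (background 68.6%), and -1.08 in COV362 cells, with 14 of 14 called lower (background 84%); under equal-median scaling the same medians were 1.30 and 0.97, and under median-of-ratios scaling 0.78 and 0.52. PSMA7, the most abundant alpha subunit gene, stood at 735 and 701 FPKM in the KURAMOCHI DMSO libraries, 700.5 and 688 FPKM at 50 nM, and 440.4 and 399.6 FPKM at 250 nM. In COV362 cells PSMA7 was 513 and 594 FPKM with DMSO, 431 and 441 FPKM at 50 nM, and 314 and 349 FPKM at 250 nM. The DMSO and 250 nM libraries did not overlap in either line. Its log2 fold change at 250 nM was -0.77 ± 0.07 (SE; limma, Benjamini-Hochberg adjusted p = 9.49e-05) in KURAMOCHI cells and -0.74 ± 0.10 (limma, Benjamini-Hochberg adjusted p = 0.000281) in COV362 cells, the smallest change of any proteasome gene in that line.

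PSMA2 and PSMA4, alpha ring genes, were not called at 250 nM in KURAMOCHI cells. PSMA2 was 210.3 and 189 FPKM with DMSO, 209 and 194 FPKM at 50 nM, and 149.1 and 133 FPKM at 250 nM. PSMA4 was 223 and 193 FPKM with DMSO, 201 and 175 FPKM at 50 nM, and 157 and 137 FPKM at 250 nM. For both genes the 250 nM libraries lay below the DMSO libraries, with log2 fold changes of -0.50 ± 0.09 and -0.50 ± 0.11 (SE). Their adjusted p values, from limma with Benjamini-Hochberg adjustment, were 0.00184 and 0.00557. In COV362 cells both were called lower, with log2 fold changes of -1.05 ± 0.11 for PSMA2 and -1.15 ± 0.13 for PSMA4.

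PSMA5 was the least abundant active alpha ring gene in both lines and the alpha ring gene with the largest fall in both. It went from 62.6 and 52.8 FPKM with DMSO to 45.3 and 41.7 FPKM at 50 nM and 24.5 and 21.7 FPKM at 250 nM in KURAMOCHI cells. In COV362 cells it went from 66.9 and 74.6 FPKM to 36.2 and 42.4 FPKM and then 26.2 and 23.4 FPKM. Its groups were separate at each dose in both lines, and it kept 40.03% and 35.1% of its DMSO level at 250 nM. Among the beta ring genes without a catalytic role, PSMB4 was the most abundant and PSMB2 the least in both lines. PSMB4 kept 67.0% of its DMSO level at 250 nM in KURAMOCHI cells and 55.3% in COV362 cells, and PSMB2 kept 64.9% and 47.01%.

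The catalytic subunits were carried mainly by the constitutive genes. PSMB5 (the chymotrypsin-like site and the main target of clinical proteasome inhibitors) stood at 392 and 363 FPKM in KURAMOCHI DMSO libraries, 257 and 250.4 FPKM at 50 nM, and 186 and 172 FPKM at 250 nM. PSMB6 (the caspase-like site) was 403 and 395 FPKM with DMSO, 373 and 373 FPKM at 50 nM, and 236 and 229 FPKM at 250 nM. PSMB7 (the trypsin-like site) was 345 and 315 FPKM, then 334 and 323 FPKM, then 220.01 and 204 FPKM. The 3 genes thus parted at 50 nM, where PSMB5 was 67.2% of its DMSO level, PSMB6 93.5% and PSMB7 99.6%, and the PSMB7 libraries overlapped those with DMSO. The log2 fold change of PSMB5 at 50 nM was -0.57 ± 0.07 and missed the threshold (limma, Benjamini-Hochberg adjusted p = 0.0013). At 250 nM all 3 were called lower, PSMB5 by -1.07, PSMB6 by -0.77 and PSMB7 by -0.64 on the log2 scale.

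In COV362 cells PSMB7 was the most abundant catalytic gene. It was 461 and 522 FPKM with DMSO, 326 and 348 FPKM at 50 nM, and 243 and 248 FPKM at 250 nM. PSMB6 was 233 and 258 FPKM, then 182 and 168 FPKM, then 127 and 144 FPKM, and PSMB5 was 194 and 215 FPKM, then 116 and 115 FPKM, then 91.5 and 99.7 FPKM. Each gene's 3 groups were separate. PSMB5 was again the lowest of the 3 relative to DMSO at 50 nM, at 56.5% against 71.5% for PSMB6 and 68.6% for PSMB7, and was the only constitutive catalytic gene called there (log2 fold change -0.82 ± 0.09, limma, Benjamini-Hochberg adjusted p = 0.000117). Whether PSMB5 differed from PSMB6 and PSMB7 was not tested.

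The immunoproteasome genes PSMB8, PSMB9 and PSMB10 were present in both lines and all 3 were called lower at 250 nM in each on the spike-in scale (backgrounds 68.6% and 84%), with medians of -1.12 in KURAMOCHI cells and -1.14 in COV362 cells; under equal-median scaling the medians were 0.81 and 0.91 and under median-of-ratios scaling 0.30 and 0.46. PSMB8 was 38.5 and 34.7 FPKM in KURAMOCHI DMSO libraries, 22.9 and 28.1 FPKM at 50 nM, and 17.2 and 16.0 FPKM at 250 nM. In COV362 cells PSMB8 was 129 and 143 FPKM with DMSO, 77.6 and 79.8 FPKM at 50 nM, and 59.7 and 62.1 FPKM at 250 nM. Its levels in the lines were not compared, because the tables of the lines were normalized apart. Set against PSMB5, the subunit it replaces, PSMB8 stood at 0.0957 to 0.0981 in KURAMOCHI and 0.664 to 0.665 in COV362 DMSO libraries, and the ratio was 0.0925 to 0.0929 and 0.623 to 0.653 at 250 nM. At 50 nM this ratio was 0.0890 and 0.112 in KURAMOCHI cells, on either side of the DMSO libraries. In COV362 cells it was 0.667 and 0.694 at 50 nM, above both DMSO libraries. A ratio of this kind lies within a library, but the spike-in adjustment was not 1 factor per library, and its part in these ratios was not tested.

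PSMB9 was the least abundant of the immunoproteasome genes in both lines. In KURAMOCHI cells it was 15.1 and 14.9 FPKM with DMSO, 7.56 and 8.51 FPKM at 50 nM, and 5.86 and 6.46 FPKM at 250 nM. In COV362 cells it was 50.7 and 55.3 FPKM, then 27.7 and 28.7 FPKM, then 23.1 and 22.2 FPKM. The ratio of PSMB9 to PSMB6 fell from 0.0375 to 0.0378 with DMSO to 0.0203 to 0.0228 at 50 nM and 0.0249 to 0.0282 at 250 nM in KURAMOCHI cells, and from 0.214 to 0.218 to 0.152 to 0.170 and 0.154 to 0.182 in COV362 cells. Every treated library thus lay below both DMSO libraries in each line. For a single dose against DMSO, 2 against 2 libraries cannot go below p = 0.33 in an exact two-sided permutation test. PSMB10 was 60.8 and 58.6 FPKM with DMSO, 43.5 and 46.6 FPKM at 50 nM, and 26.1 and 27.9 FPKM at 250 nM in KURAMOCHI cells. Its ratio to PSMB7 went from 0.176 to 0.186 with DMSO to 0.119 to 0.137 at 250 nM there, and from 0.126 to 0.137 to 0.119 to 0.126 in COV362 cells, where the lowest DMSO library and the highest 250 nM library lay at the same rounded value. At 50 nM this ratio was 0.130 and 0.144 in KURAMOCHI cells. In COV362 cells it was 0.112 and 0.109 at 50 nM, below the DMSO and the 250 nM libraries. PSMB8 and PSMB9 overlap on opposite strands on chromosome 6 in GRCh37, and although the libraries were made with a stranded kit, the strand setting of the authors' counting was not given in the sources used here, so whether reads of that overlap were told apart is unknown.

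**Figure D2:**
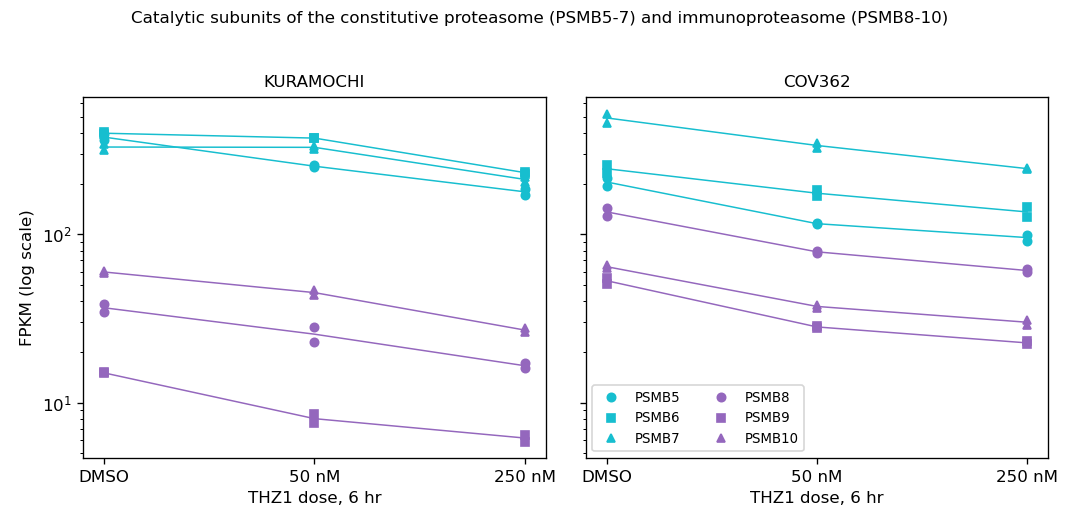
FPKM (vertical axis, log scale) of the constitutive catalytic genes PSMB5, PSMB6 and PSMB7 and the immunoproteasome genes PSMB8, PSMB9 and PSMB10 by THZ1 dose (horizontal axis) in KURAMOCHI and COV362 cells. Points are libraries and lines join means of 2. On the spike-in scale all 6 genes are lowest at 250 nM, and in KURAMOCHI cells PSMB6 and PSMB7 run nearly level to 50 nM while PSMB5 and the immunoproteasome genes drop; under the other scalings the 250 nM changes of all 6 turn positive.

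The 6 ATPase genes of the 19S particle had median changes of -0.91 in KURAMOCHI cells and -1.16 in COV362 cells at 250 nM on the spike-in scale, and 6 of 6 were called lower in each line (backgrounds 68.6% and 84%); these medians were 1.06 and 0.90 under equal-median scaling and 0.54 and 0.44 under median-of-ratios scaling. PSMC6 fell furthest in both lines. It went from 94.2 and 85.9 FPKM with DMSO to 75.4 and 69.9 FPKM at 50 nM and 36.2 and 36.8 FPKM at 250 nM in KURAMOCHI cells. In COV362 cells PSMC6 went from 82.8 and 97.7 FPKM to 41.2 and 48.0 FPKM and 23.7 and 21.7 FPKM, a log2 fold change at 250 nM of -1.94 ± 0.12 (limma, Benjamini-Hochberg adjusted p = 3.43e-06). The groups of PSMC6 did not overlap at any dose. PSMC3, the most abundant ATPase gene in KURAMOCHI cells, kept 54.1% of its DMSO level at 250 nM there and 49.2% in COV362 cells, and PSMC5, the most abundant in COV362 cells, kept 51.7% and 47.3%.

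The 11 non-ATPase genes were all called lower at 250 nM in each line on the spike-in scale (backgrounds 68.6% and 84%), with medians of -1.01 and -1.29 in KURAMOCHI and COV362 cells, against 0.96 and 0.76 under equal-median scaling and 0.44 and 0.31 under median-of-ratios scaling. PSMD12, a lid subunit gene, showed the widest step between the doses of any proteasome gene in COV362 cells. It was 108 and 121 FPKM with DMSO, 69.2 and 82.1 FPKM at 50 nM, and 26.1 and 23.9 FPKM at 250 nM there. In KURAMOCHI cells PSMD12 was 75.1 and 67.0 FPKM with DMSO, 74.3 and 69.5 FPKM at 50 nM, and 30.0 and 29.9 FPKM at 250 nM. The 50 nM libraries lay within the DMSO range in KURAMOCHI cells, and the 250 nM libraries lay far below in both lines. The log2 fold change of PSMD12 between 50 nM and 250 nM was -1.56 ± 0.11 in COV362 cells (limma, Benjamini-Hochberg adjusted p = 7.04e-05) and -1.24 ± 0.08 in KURAMOCHI cells (limma, Benjamini-Hochberg adjusted p = 8.36e-05).

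PSMD2, which encodes a base subunit that docks ubiquitin receptors, was the only proteasome gene whose 50 nM libraries lay above both DMSO libraries, in KURAMOCHI cells. It was 247 and 225 FPKM with DMSO, 256 and 249 FPKM at 50 nM, and 162 and 156 FPKM at 250 nM there. Such a separation upward was met by 3.45% of active genes in that comparison, and the log2 fold change of PSMD2, 0.10 ± 0.07, was not called (limma, Benjamini-Hochberg adjusted p = 0.247), while in COV362 cells it was -0.47 on the spike-in scale. The deubiquitinase gene PSMD14 was 213 and 196 FPKM with DMSO, 198 and 179 FPKM at 50 nM and 104 and 97.9 FPKM at 250 nM in KURAMOCHI cells, and it kept 49.4% of its DMSO level at 250 nM there and 33.4% in COV362 cells. PSMD8 was the most abundant non-ATPase gene in KURAMOCHI cells and PSMD4, the gene of a ubiquitin receptor, in COV362 cells. They kept 58.7% and 53.1% of their DMSO levels at 250 nM in KURAMOCHI cells and 48.1% and 46.8% in COV362 cells. PSMD11, the least abundant in both lines, kept 41.2% and 34.0%. PSMD2 and PSMD14, and below PSMD10, PSME3 and PSME4, lay outside the rule for named genes and were chosen after their values were seen.

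As a group, the assembly chaperones reached the lowest levels relative to DMSO. The 7 chaperone genes had medians of -1.78 in KURAMOCHI cells and -1.75 in COV362 cells at 250 nM on the spike-in scale, with 7 of 7 called lower in each line (backgrounds 68.6% and 84%); under equal-median scaling these medians turned to 0.11 and 0.29, and under median-of-ratios scaling they stayed below zero at -0.39 and -0.17. PSMG3, which acts with PSMG4 early in the building of the alpha ring, stood at 77.5 and 85.4 FPKM in the KURAMOCHI DMSO libraries, 32.5 and 26.6 FPKM at 50 nM, and 9.33 and 9.44 FPKM at 250 nM. The 3 groups were wide apart. PSMG3 overlaps PSMG3-AS1 on the opposite strand, where the same holds as for PSMB8 and PSMB9. Its log2 fold change was -1.44 ± 0.11 at 50 nM (limma, Benjamini-Hochberg adjusted p = 0.000403), the only proteasome gene called at that dose in KURAMOCHI cells, and -2.99 ± 0.11 at 250 nM (limma, Benjamini-Hochberg adjusted p = 7.61e-06). At 250 nM 3.76% of active genes fell further than PSMG3 there. With any of the 6 KURAMOCHI libraries left out, the count at 50 nM was 0.

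In COV362 cells PSMG3 was 135 and 154 FPKM with DMSO, 64.3 and 69.0 FPKM at 50 nM, and 43.7 and 45.5 FPKM at 250 nM. It kept 30.9% of its DMSO level there at 250 nM and 11.5% in KURAMOCHI cells, and this difference between the lines was not tested. In KURAMOCHI cells PSMG3 was called lower at 250 nM on all 3 scales, with log2 fold changes of -1.10 under equal-median scaling and -1.60 under median-of-ratios scaling. In COV362 cells its change was 0.38 under equal-median scaling and -0.08 under median-of-ratios scaling.

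PSMG2, the partner of PSMG1 in the heterodimer that starts alpha ring assembly, fell in both lines. It was 47.4 and 41.3 FPKM with DMSO, 29.3 and 23.7 FPKM at 50 nM, and 10.3 and 10.4 FPKM at 250 nM in KURAMOCHI cells. In COV362 cells PSMG2 was 72.1 and 80.5 FPKM, then 25.1 and 34.0 FPKM, then 13.1 and 12.6 FPKM. The groups were separate, and the log2 fold changes at 250 nM were -1.99 ± 0.12 and -2.48 ± 0.14 (limma, Benjamini-Hochberg adjusted p = 2.32e-05 and 2.89e-06). PSMG1, the most abundant core chaperone gene in KURAMOCHI cells, kept more, 40.8% and 29.0% of its DMSO level at 250 nM. PSMG4 was 13.3 and 12.6 FPKM with DMSO and 3.01 and 2.40 FPKM at 250 nM in KURAMOCHI cells, and 49.1 and 56.0 FPKM against 11.2 and 13.4 FPKM in COV362 cells.

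Of the chaperones of the ATPase ring, PSMD5 fell furthest. It was 46.5 and 39.6 FPKM with DMSO, 34.1 and 31.6 FPKM at 50 nM, and 11.99 and 11.6 FPKM at 250 nM in KURAMOCHI cells. In COV362 cells it was 57.5 and 62.3 FPKM, then 22.3 and 26.9 FPKM, then 11.2 and 9.05 FPKM. No groups overlapped, and PSMD5 kept 27.4% and 16.9% of its DMSO level at 250 nM. Its log2 fold change in COV362 cells at 250 nM was -2.46 ± 0.13 (limma, Benjamini-Hochberg adjusted p = 2.09e-06). PSMD9 and PSMD10 kept 53.1% and 51.6% of their DMSO levels in KURAMOCHI cells and 43.6% and 38.3% in COV362 cells.

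Among the alternative activators, PSME1 and PSME2, which together form the interferon-inducible cap PA28 alpha-beta, kept far more transcript than PSME3, PSME4 and PSMF1. PSME1 was 266 and 225 FPKM with DMSO, 247 and 226 FPKM at 50 nM, and 214 and 186 FPKM at 250 nM in KURAMOCHI cells. PSME2 was 424 and 365 FPKM, then 401 and 377 FPKM, then 299 and 276 FPKM. For both genes the 50 nM libraries lay within the DMSO range and the 250 nM libraries lay below it. Neither was called at 250 nM in KURAMOCHI cells: the log2 fold changes were -0.29 ± 0.11 for PSME1 and -0.45 ± 0.09 for PSME2 (limma, Benjamini-Hochberg adjusted p = 0.042 and 0.00339). In COV362 cells PSME1 was 199.7 and 225 FPKM with DMSO, 131 and 148 FPKM at 50 nM and 121 and 114 FPKM at 250 nM, and both genes were called lower at 250 nM, at 55.5% and 53.8% of DMSO.

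PSME3, PSME4 and PSMF1 kept 42.1%, 45.7% and 37.0% of their DMSO levels at 250 nM in KURAMOCHI cells and 34.7%, 34.5% and 35.8% in COV362 cells. The 5 genes of this group had medians of -1.09 and -1.40 on the spike-in scale, which turned to 0.84 and 0.56 under equal-median scaling and to 0.33 and 0.13 under median-of-ratios scaling. PSMC3IP, the gene that shares only the name, was 21.9 and 18.3 FPKM with DMSO and 10.0 and 10.6 FPKM at 250 nM in KURAMOCHI cells, a change of -0.90 ± 0.14. Its change was -1.35 in COV362 cells at 250 nM, and -0.64 and -1.07 in KURAMOCHI and COV362 cells at 50 nM.

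**Figure D3:**
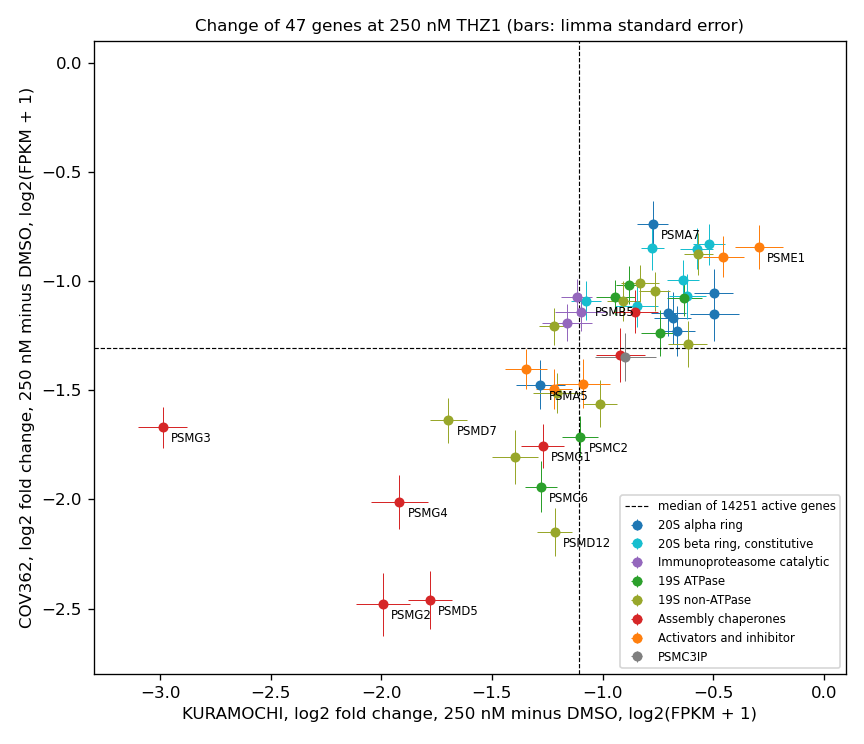
Log2 fold change at 250 nM THZ1 against DMSO on log2(FPKM + 1) in KURAMOCHI (horizontal axis) and COV362 cells (vertical axis) for 47 genes, coloured by role, with limma standard errors as bars and dashed lines at the medians of 14251 active genes. On the spike-in scale all 47 points lie below 0 on both axes, with PSMG3, PSMG2, PSMG4 and PSMD5 at the lower left and PSME1 and PSMA7 at the upper right; under the other scalings most points lie above 0.

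The order of the genes was alike in the lines. Across the 47 genes the log2 fold changes at 250 nM in the lines gave a Pearson r of 0.733 and a Spearman rho of 0.781, and across the 14251 active genes 0.672 and 0.712. Genes are not independent replicates, and within a line all points share the same libraries and spike-in scale, so these are descriptions. Proteasome genes with a higher DMSO level fell less, with rho 0.675 between change and log2 DMSO level in KURAMOCHI cells and 0.619 in COV362 cells. Over all active genes rho was -0.362 and -0.421 on the same log2(FPKM + 1) scale, where the pseudocount shrinks changes of low genes. As percentages of the DMSO level, 5 groups of active genes, from the lowest DMSO level up, kept medians of 47.5%, 27.7%, 28.6%, 32.9% and 49.1% in KURAMOCHI cells. In COV362 cells these were 46.1%, 26.5%, 25.6%, 29.4% and 40.8%. The change and the DMSO level share the DMSO libraries. Gene length on GRCh37 gave rho -0.189 in KURAMOCHI cells and -0.482 in COV362 cells over the 47 genes, and 0.0159 and -0.0899 over 12757 active genes with a length.

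The promoters of 4 genes are shown because the genes lie at the ends of the COV362 order, PSMD5 and PSMD12 among the 3 largest falls at 250 nM and PSMB3 and PSME1 among the 3 smallest, and because each has a single start in the RefSeq table. Each is the stretch of 150 bases next to the transcription start, on its upstream side, from RefSeq on GRCh38.p14, written 5′ to 3′ along the gene, with capitals at matches to the motifs searched.
PSMD5 (chr9:120842923-120843072, minus strand): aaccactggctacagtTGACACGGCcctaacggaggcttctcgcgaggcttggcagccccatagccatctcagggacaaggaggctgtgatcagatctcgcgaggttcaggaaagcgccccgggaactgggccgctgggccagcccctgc
PSMD12 (chr17:67366578-67366727, minus strand): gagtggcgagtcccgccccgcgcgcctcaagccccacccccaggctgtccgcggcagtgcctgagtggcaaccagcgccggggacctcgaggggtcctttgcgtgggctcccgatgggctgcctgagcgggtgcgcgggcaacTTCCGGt
PSMB3 (chr17:38752591-38752740, plus strand): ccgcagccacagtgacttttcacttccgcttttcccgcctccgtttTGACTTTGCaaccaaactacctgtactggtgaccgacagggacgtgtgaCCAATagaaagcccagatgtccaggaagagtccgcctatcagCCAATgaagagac
PSME1 (chr14:24136044-24136193, plus strand): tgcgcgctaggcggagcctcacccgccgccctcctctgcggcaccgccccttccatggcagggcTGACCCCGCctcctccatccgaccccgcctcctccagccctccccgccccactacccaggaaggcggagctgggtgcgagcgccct
The letters were searched on both strands.

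Promoters of 43 of the 49 genes matched by symbol, 53 windows running from 250 bases before to 50 bases after a start. PSMA7, PSMB1, PSMB6, PSMB7, PSMD4 and PSMG3 had no entry. The motifs searched were CCGGAA, the core bound by ETS factors, CCAAT, the box bound by NF-Y, and TGACNNNGC, the core of the antioxidant response element to which NFE2L1 and NFE2L2 bind. No matches of different motifs overlapped in these windows. CCGGAA was found in 45.3% of the proteasome windows, in 17.2% of all 35116 windows and in 26% of 14776 windows of active genes. CCAAT was found in 41.5%, 34.6% and 34.4%, and TGACNNNGC in 28.3%, 13.3% and 14.3%. The PSMD12 stretch above held CCGGAA on its reverse strand, PSMD5 and PSME1 held TGACNNNGC, and PSMB3 held CCAAT 2 times and TGACNNNGC. Genes with CCGGAA in a window had a median log2 fold change at 250 nM of -1.04 in KURAMOCHI cells and -1.37 in COV362 cells (22 genes), and the 19 tested genes with a window and without it -0.66 and -1.15. For TGACNNNGC the medians were -0.94 and -1.19 with it (15 genes) and -0.97 and -1.23 without it (26 genes), and for CCAAT -0.98 and -1.22 with it (20 genes) and -0.85 and -1.17 without it (21 genes). A match describes letters in a window and shows no binding.

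Outside the name rule, 25 genes of the same pathway were listed and all 25 were active. On the spike-in scale at 250 nM, 23 of 25 were called lower in KURAMOCHI cells (background 68.6%) and 25 of 25 in COV362 cells (background 84%), with medians of -1.17 and -1.55, and at 50 nM 0 and 20 were called lower (backgrounds 11.3% and 70.5%); none was called higher. AKIRIN2, which carries proteasomes into the nucleus, changed by -3.50 on the log2 scale in KURAMOCHI cells and by -3.15 in COV362 cells at 250 nM. The transcription factor genes NFE2L1 and NFE2L2 and the NFE2L1 protease gene DDI2 were all called lower in both lines at 250 nM on the spike-in scale, and NFE2L1 turned positive under equal-median scaling (0.79 in KURAMOCHI and 0.70 in COV362 cells) and median-of-ratios scaling (0.28 and 0.25). NFE2L2 changed by -2.69 and -3.25, DDI2 by -2.36 and -2.43 and NFE2L1, the factor that raises proteasome genes when the proteasome is inhibited, by -1.14 and -1.33 in KURAMOCHI and COV362 cells. ZFAND5, an activator of the 26S particle, changed by -2.62 and -3.11.

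Of the other subunit and assembly genes, POMP, the chaperone that completes the core, kept 59.5% of its DMSO level at 250 nM in KURAMOCHI cells and 49.4% in COV362 cells. ADRM1, a ubiquitin receptor gene of the 19S particle, kept 28.9% and 41.7%. SEM1, its smallest subunit gene, was not called in KURAMOCHI cells (log2 fold change -0.39 ± 0.10, limma, Benjamini-Hochberg adjusted p = 0.0116) and kept 76.4% and 58.7%. Of the enzymes bound to the proteasome, the deubiquitinase genes USP14 and UCHL5 kept 51.1% and 50.8% in KURAMOCHI cells and 32.6% and 35.6% in COV362 cells. UBE3C, a proteasome-bound ubiquitin ligase gene, kept 35.0% and 29.4%. RPS27A, which encodes ubiquitin fused to a ribosomal protein, kept 81.1% and 59.7%.

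Summed over the 49 genes, proteasome transcripts came to 8810 ± 600 FPKM (SD, n = 2) with DMSO, 7982 ± 260 FPKM at 50 nM and 5143 ± 283 FPKM at 250 nM in KURAMOCHI cells. In COV362 cells the sums were 9554 ± 809 FPKM, 6133 ± 276 FPKM and 4421 ± 27.7 FPKM. As a share of all FPKM in the library they held 0.716% ± 0.046, 0.798% ± 0.000424 and 0.810% ± 0.0058 in KURAMOCHI cells and 0.605% ± 0.00679, 0.547% ± 0.0249 and 0.581% ± 0.00665 in COV362 cells. The rows of the short MIR1244 genes held 29.6% to 46.4% of all FPKM in the libraries. Without them the shares were 1.11%, 1.19% and 1.16% in KURAMOCHI cells and 0.936%, 0.979% and 0.911% in COV362 cells. The ratio of the median proteasome gene to the median active gene went from 11.9 to 16.7 and 26.6 in KURAMOCHI cells and from 10.4 to 13.9 and 16.4 in COV362 cells. The part of the spike-in adjustment in these shares and ratios was not tested.

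The scale set the sign of the median change of the family, but not of every member: PSMG2 and PSMG4 lay below 0 on all 3 scales in both lines, PSMG3 in KURAMOCHI cells and PSMD5 and PSMD12 in COV362 cells. Of these only PSMG3 was called lower under equal-median scaling. The others there were -0.11 for PSMG2 and -0.24 for PSMG4 in KURAMOCHI cells. In COV362 cells they were -0.48 for PSMG2, -0.02 for PSMG4, -0.48 for PSMD5 and -0.11 for PSMD12. With the medians of active genes made equal among libraries, the median change of the 47 genes at 250 nM was 1.01 in KURAMOCHI cells and 0.84 in COV362 cells, with 35 genes called higher in each line (26.9% and 26.4% of active genes), and 1 and 0 called lower (11.6% and 11.3%). Under median-of-ratios scaling the medians were 0.51 and 0.40, with 17 and 16 called higher (11.1% and 8.57% of active genes) and 2 and 3 called lower (19% and 18.9%). The medians of all active genes on these scales were 0.29 and 0.31 under equal-median scaling and -0.00 and 0.01 under median-of-ratios scaling. Both scalings multiply each library by 1 factor, which leaves the order of FPKM within a library as it was. The order of changes on log2(FPKM + 1) can shift, because the pseudocount shrinks changes of low genes. At 250 nM in KURAMOCHI cells the median of the 47 genes lay 0.20 above that of active genes on the spike-in scale. That gap was 0.72 under equal-median and 0.51 under median-of-ratios scaling. In COV362 cells it was 0.14, 0.53 and 0.39.

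**Figure D4:**
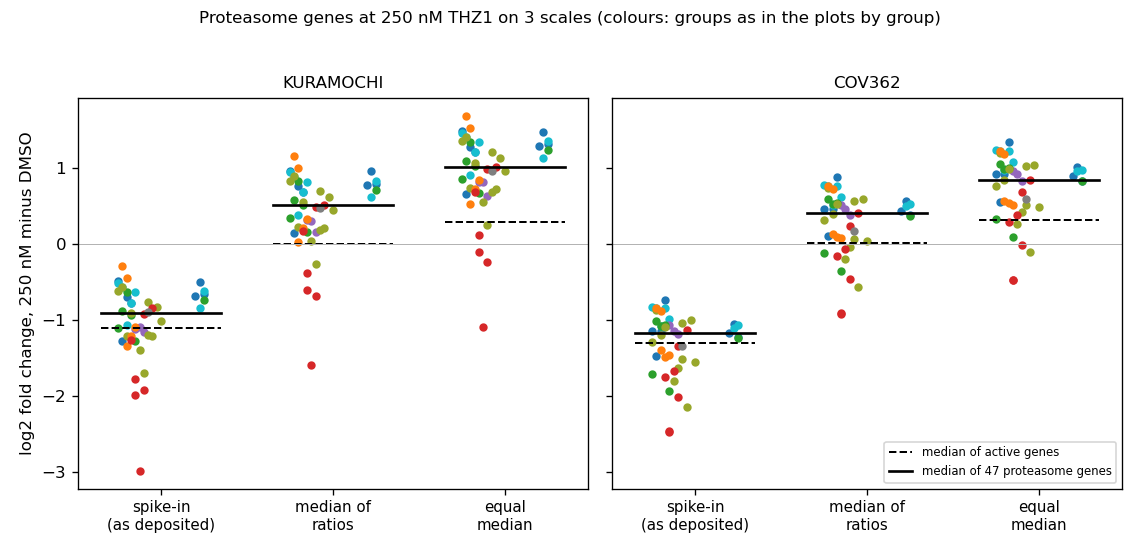
Log2 fold change at 250 nM against DMSO (vertical axis) of 47 proteasome genes in KURAMOCHI and COV362 cells on the spike-in scale as deposited, under median-of-ratios scaling and under equal-median scaling (horizontal axis), each point a gene coloured by role. Solid bars mark the median of the 47 genes and dashed bars that of 14251 active genes; the genes lie below 0 on the spike-in scale and mostly above 0 on the other 2.

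In GRCh37, PSMG3 lies on chromosome 7 (chr7:1606968-1610641, minus strand), PSMD5 on chromosome 9 (chr9:123577774-123605229, minus strand), PSMD12 on chromosome 17 (chr17:65334032-65362721, minus strand) and PSME1 on chromosome 14 (chr14:24605372-24608176, plus strand). In that annotation 9 of the genes overlap a gene on the same strand and 19 a gene on the opposite strand. For 17 of them pseudogenes of the same name are annotated, 44 in all and 13 of them for PSMC1, and none of these had a row in the tables, so reads shared with such copies cannot be told apart.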

How the data were processed

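RNA sequencing libraries of KURAMOCHI and COV362 cells (12 in all) were used as deposited. The authors mixed ERCC RNA with total RNA by cell number, and the submitters' processing notes name HISAT, Cufflinks, Cuffnorm and hg19 without versions. The deposited values are FPKM normalized by the authors to the spike-ins, in 1 table per line with 23713 rows, 92 of them ERCC rows, which were left out. Depth per library is unknown. The authors' edgeR test needs counts and was not repeated. Each line was fitted apart with limma 3.58.1 in R 4.3.3 (lmFit, eBayes with trend) on log2(FPKM + 1) over its 6 libraries and 14251 active genes, with Benjamini-Hochberg adjustment over all of them, after tests on simulated data. The pseudocount of 1 shrinks changes of low genes, so percentages of the DMSO mean of the FPKM are given too. Libraries were grouped by their labels. Equal-median scaling set the median of active genes alike in all libraries of a line, and median-of-ratios scaling used the median ratio to the geometric mean. Other alternatives were the pseudocount, the filter, the groups fitted, a replicate block, the thresholds, and leaving out libraries. Genes with values in the text were the catalytic subunits, the 3 largest and smallest falls per line at 250 nM, those not called at 250 nM, the most and least abundant gene of each role, NFE2L1, DDI2, POMP, ADRM1, SEM1, USP14 and UCHL5, and the largest and smallest fall of each pathway list. The proteasome genes, roles and pathway lists were chosen with earlier results of these data known. Results for 1 further pathway gene are not reported here. Positions came from GENCODE on GRCh37 and promoters from RefSeq on GRCh38.p14. Plots were drawn with matplotlib 3.10.9.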

Additional observations from a re-analysis of the deposited data

Results flagged for a closer look

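On the spike-in scale PSMD2 lay on opposite sides of DMSO in the lines at 50 nM. Both 50 nM libraries lay above both DMSO libraries in KURAMOCHI cells, with a log2 fold change of 0.10, and both lay below in COV362 cells, with a log2 fold change of -0.47. Neither change was called by limma. On the other scales it lay above DMSO in both lines, with log2 fold changes of 0.80 in KURAMOCHI and 0.75 in COV362 cells under equal-median scaling and 0.65 and 0.55 under median-of-ratios scaling, none of them called. The difference between the lines was not tested, because their tables were normalized apart.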

How the results depend on the processing

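The calls at 250 nM in COV362 cells held under most alternatives, and scaling mattered most: it turned the sign of the median change in both lines. Backgrounds are shares of all genes tested in the same fit. Under equal-median scaling the median changes of proteasome genes were 0.50 and 1.01 at 50 nM and 250 nM in KURAMOCHI cells and 0.52 and 0.84 in COV362 cells, and under median-of-ratios scaling 0.35, 0.51, 0.33 and 0.40. Equal-median scaling gave 0 (background 0.737%) genes called lower at 50 nM in KURAMOCHI and 0 (background 0.147%) in COV362 cells, 1 (background 11.6%) lower and 35 (background 26.9%) higher at 250 nM in KURAMOCHI cells, 0 (background 11.3%) lower and 35 (background 26.4%) higher in COV362 cells, and between the doses 0 (background 6.55%) lower and 1 (background 6.46%) higher in KURAMOCHI and 1 (background 4.95%) lower and 1 (background 3.16%) higher in COV362 cells. Median-of-ratios scaling gave 0 (background 2.72%) lower at 50 nM in KURAMOCHI and 0 (background 0.772%) in COV362 cells, 2 (background 19%) lower and 17 (background 11.1%) higher at 250 nM in KURAMOCHI, 3 (background 18.9%) lower and 16 (background 8.57%) higher in COV362, and between the doses 1 (background 11.1%) and 1 (background 7.92%) lower. Under equal-median scaling in KURAMOCHI cells, 44 of the 47 proteasome genes lay above 0 at 250 nM. Of the genes under the rule for named genes, the log2 fold changes that turned positive there were ADRM1 0.19, NFE2L1 0.79, POMP 1.23, PSMA2 1.47, PSMA4 1.48, PSMA5 0.65, PSMA7 1.21, PSMB10 0.82, PSMB2 1.35, PSMB3 1.46, PSMB4 1.40, PSMB5 0.90, PSMB6 1.202, PSMB7 1.34, PSMB8 0.81, PSMB9 0.63, PSMC3 1.09, PSMC3IP 0.96, PSMC5 1.02, PSMC6 0.67, PSMD11 0.67, PSMD12 0.72, PSMD4 1.07, PSMD5 0.11, PSMD8 1.21, PSMD9 1.01, PSME1 1.68, PSME2 1.52, PSMF1 0.52, PSMG1 0.68, RPS27A 1.68, SEM1 1.59, UBE3C 0.46, UCHL5 0.99 and USP14 0.99. Under equal-median scaling in COV362 cells, 43 of the 47 proteasome genes lay above 0 at 250 nM. Of the genes under the rule for named genes, the log2 fold changes that turned positive there were ADRM1 0.80, NFE2L1 0.70, POMP 1.04, PSMA2 1.01, PSMA4 0.92, PSMA5 0.55, PSMA7 1.34, PSMB10 0.96, PSMB2 0.97, PSMB3 1.24, PSMB4 1.22, PSMB5 0.97, PSMB6 1.22, PSMB7 1.07, PSMB8 0.91, PSMB9 0.82, PSMC3 1.05, PSMC3IP 0.59, PSMC5 0.99, PSMC6 0.087, PSMD11 0.51, PSMD4 0.98, PSMD8 1.02, PSMD9 0.84, PSME1 1.22, PSME2 1.18, PSMF1 0.56, PSMG1 0.29, PSMG3 0.38, RPS27A 1.33, SEM1 1.31, UBE3C 0.31, UCHL5 0.57 and USP14 0.44. Under median-of-ratios scaling in KURAMOCHI cells, 42 of the 47 proteasome genes lay above 0 at 250 nM. Of the genes under the rule for named genes, the log2 fold changes that turned positive there were NFE2L1 0.28, POMP 0.71, PSMA2 0.95, PSMA4 0.96, PSMA5 0.14, PSMA7 0.68, PSMB10 0.31, PSMB2 0.83, PSMB3 0.94, PSMB4 0.88, PSMB5 0.38, PSMB6 0.68, PSMB7 0.82, PSMB8 0.30, PSMB9 0.16, PSMC3 0.57, PSMC3IP 0.47, PSMC5 0.51, PSMC6 0.15, PSMD11 0.18, PSMD12 0.21, PSMD4 0.54, PSMD8 0.69, PSMD9 0.51, PSME1 1.16, PSME2 1.00, PSMF1 0.024, PSMG1 0.16, RPS27A 1.16, SEM1 1.07, UCHL5 0.48 and USP14 0.48. Under median-of-ratios scaling in COV362 cells, 37 of the 47 proteasome genes lay above 0 at 250 nM. Of the genes under the rule for named genes, the log2 fold changes that turned positive there were ADRM1 0.34, NFE2L1 0.25, POMP 0.59, PSMA2 0.55, PSMA4 0.46, PSMA5 0.10, PSMA7 0.88, PSMB10 0.51, PSMB2 0.52, PSMB3 0.78, PSMB4 0.76, PSMB5 0.52, PSMB6 0.76, PSMB7 0.62, PSMB8 0.46, PSMB9 0.38, PSMC3 0.59, PSMC3IP 0.16, PSMC5 0.53, PSMD11 0.058, PSMD4 0.52, PSMD8 0.56, PSMD9 0.40, PSME1 0.76, PSME2 0.72, PSMF1 0.13, RPS27A 0.87, SEM1 0.85 and UCHL5 0.12. Without a minimum FPKM, 0 (background 0.0127%) genes were called lower at 50 nM and 6 (background 8.05%) between the doses in KURAMOCHI cells and 4 (background 9%) between the doses in COV362 cells, and a minimum of 10 FPKM gave 2 (background 15.5%) at 50 nM in KURAMOCHI cells. Fitting only the compared groups gave 0 (background 0.0632%) at 50 nM in KURAMOCHI cells and 5 (background 17%) between the doses in COV362 cells. Without the mean-variance trend 17 (background 31.3%) were called between the doses in KURAMOCHI cells. An adjusted p under 0.05 gave 9 (background 40.2%) at 50 nM in KURAMOCHI cells and 24 (background 41.5%) between the doses in COV362 cells. A log2 fold change beyond 1 left 21 (background 53.5%) at 250 nM and 8 (background 25.2%) between the doses in KURAMOCHI cells and 7 (background 35.5%) at 50 nM and 3 (background 14.3%) between the doses in COV362 cells. Whether replicate numbers pair the libraries is unknown. Across genes, same-numbered libraries deviated from their group means with correlations of -0.0703 to 0.0282, which cannot show an offset shared by all genes of a library. With the replicate number as a block the counts called lower in KURAMOCHI cells were 2 (background 6.94%) at 50 nM and 36 (background 34.7%) between the doses. In COV362 cells they were 21 (background 51%) at 50 nM and 2 (background 7.93%) between the doses. Leaving out each library in turn, with the lone library assumed to vary like the others, gave 0 to 0 genes called lower at 50 nM, 23 to 39 at 250 nM and 1 to 26 between the doses in KURAMOCHI cells, and 4 to 29, 46 to 47 and 1 to 11 in COV362 cells. The count of 23 (background 44.3%) came without the 250 nM replicate 2 of KURAMOCHI, where 25 (background 51.2%) and 28 (background 42.7%) came without DMSO replicate 1 and 250 nM replicate 1. The count of 4 (background 30.3%) came without the DMSO replicate 2 of COV362 and 19 (background 59.6%) without its 50 nM replicate 1. Between the doses, KURAMOCHI counts were 1 without 50 nM replicate 1 or either 250 nM library (backgrounds 5.55% to 7.17%) and 7 (background 11.2%) without 50 nM replicate 2, and COV362 counts were 1 to 3 without any library but 50 nM replicate 1 (backgrounds 10.7% to 18.7%). The median change at 50 nM ranged from -0.28 to -0.11 in KURAMOCHI cells, the latter without DMSO replicate 1, and from -0.79 to -0.61 in COV362 cells, and at 250 nM from -0.999 to -0.828 and from -1.25 to -1.08. The share of summed FPKM at 250 nM without the MIR1244 rows, an alternative chosen after seeing the data, was 1.16% in KURAMOCHI and 0.911% in COV362 cells. Apart from the scalings and fewer libraries, the cause of these shifts was not tested. With no minimum FPKM, so that untranscribed rows entered, the median proteasome gene at 250 nM (-0.90 in KURAMOCHI and -1.15 in COV362 cells) lay below the median of all rows (-0.50 and -0.70). The read depth behind each FPKM is unknown, so no counting limit can be given for PSMA8 and PSMB11.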
